A study of Homo sapiens with 6 samples.

Results

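DTX3L and the PARP enzymes here are the measured genes of a set of 10 built around the ubiquitin ligase DTX3L and its partner PARP9. The set also holds further PARPs that it groups as interferon-induced (PARP14, PARP10, PARP11, PARP12, PARP8 and PARP4) and the DNA-damage enzymes PARP1 and PARP2. Whether each gene of that group is induced by interferon was not checked here. Members were the genes whose symbol stood in the platform annotation, with the brightest probe set per gene. Of the 10 genes 3 had such a probe set, DTX3L, PARP1 and PARP2, out of 14812 named genes in all. The other 7 were not analysed here. The set's name speaks of antiviral PARPs, but the 1 interferon-induced member measured is DTX3L, a ubiquitin ligase and not a PARP, so the values below are those of DTX3L beside PARP1 and PARP2.

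Expression was measured on 6 whole-transcript arrays of HuH7 cells, a human hepatoma line. In 3 samples the cells received a gapmer against EGOT, a long noncoding RNA that is known to be induced by double-stranded RNA. The other 3 were given a control gapmer. Gapmers are modified oligonucleotides that pair with an RNA and have it cut by RNase H. All 6 samples shared 50 pmol of gapmer, 0.3 µg of plasmid for PKR (a kinase that double-stranded RNA switches on), a carrier plasmid and poly I:C (a synthetic stand-in for viral RNA), and RNA was taken at 36 hours. PKR and poly I:C were given to raise EGOT, and the comparison asks what differs when EGOT is depleted under those conditions. The design holds 1 gapmer against EGOT, 1 control gapmer and 1 cell line, with no samples free of PKR and poly I:C, so the size of the interferon response itself cannot be read from it. Whether replicates were separate cultures is not stated, so the p-values rest on a spread between samples that may be technical. In bulk RNA a change in the level per cell and a change in the share of cells that express a gene cannot be told apart.

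PARP enzymes take ADP-ribose from NAD and attach it to proteins or nucleic acids. PARP1 and PARP2 build long chains of it at DNA breaks and are expressed constitutively in most cells, whereas several other family members attach single units and are induced by interferon. DTX3L, also called BBAP, forms a complex with PARP9, also called BAL1. The pair lies head to head on chromosome 3 and is known to be induced together by interferon gamma from a shared promoter. Interferon signals reach such genes through JAK kinases and transcription factors that bind motifs named ISRE (interferon-stimulated response element) and GAS (gamma-activated site).

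The sequences given for the gapmers that define the groups are shown because they mark the perturbation. The start regions of the measured genes are shown for the motifs by which the genes can be told apart. The labels give the gapmer sequences as the targets of the gapmers. Whether the letters are those of the oligonucleotides themselves was not checked here.
EGOT gapmer: agagacacttagaaga
control gapmer: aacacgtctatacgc

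The next 3 sequences, from RefSeq on GRCh38.p14, run from 250 bases before to 50 bases after the annotated start of each gene. DTX3L is at chr3:122564088-122564387 on the plus strand, PARP1 at chr1:226408044-226408343 on the minus strand and PARP2 at chr14:20343385-20343684 on the plus strand. Capitals mark the core of an ISRE, searched on both strands as a pair of GAAA half-sites with any 2 bases between them.
DTX3L: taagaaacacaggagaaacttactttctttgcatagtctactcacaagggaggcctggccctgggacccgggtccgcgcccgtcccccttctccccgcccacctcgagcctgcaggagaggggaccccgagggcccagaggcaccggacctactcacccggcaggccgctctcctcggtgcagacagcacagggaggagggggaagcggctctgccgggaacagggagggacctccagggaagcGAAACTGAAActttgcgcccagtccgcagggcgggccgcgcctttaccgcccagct
PARP1: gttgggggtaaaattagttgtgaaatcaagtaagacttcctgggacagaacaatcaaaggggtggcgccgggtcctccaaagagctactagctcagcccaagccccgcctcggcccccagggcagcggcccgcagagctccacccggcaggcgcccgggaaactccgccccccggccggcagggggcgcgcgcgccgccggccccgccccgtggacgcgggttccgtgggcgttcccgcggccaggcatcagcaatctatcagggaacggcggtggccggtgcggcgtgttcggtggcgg
PARP2: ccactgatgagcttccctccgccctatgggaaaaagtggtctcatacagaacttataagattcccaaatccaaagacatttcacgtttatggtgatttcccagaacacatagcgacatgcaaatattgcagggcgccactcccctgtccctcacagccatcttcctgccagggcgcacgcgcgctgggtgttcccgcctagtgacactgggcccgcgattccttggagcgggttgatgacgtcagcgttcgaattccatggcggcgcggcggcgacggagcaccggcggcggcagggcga

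The DTX3L window held 1 match to the ISRE core, from 6 bases before the start to base 4 after it. The PARP1 and PARP2 windows held 0. Of 35116 promoter windows of the same length 3.57% held a match. The table holds 2 windows of PARP9 starts, on the opposite strand. The DTX3L window shares 137 bases with 1 of them, and the same match stands in both, whereas it shares 0 bases with the other, whose start is the end of the annotated PARP9 span. A GAS motif, searched as TTCNNNGAA, which reads the same on both strands, had 0 matches in the DTX3L and PARP1 windows and 1 in the PARP2 window, against 7.66% of all windows with a match. The PARP2 match and the ISRE core match lie in different genes and do not overlap. A match is a description of the letters and no test of binding.

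The cells and the targeted RNA were checked first. Among 7 measured hepatocyte markers, ALB and AFP, the genes of albumin and alpha-fetoprotein, stood above 99.9% of probe sets on every array. The linear levels of the 7 markers summed to 45372 to 45967 with the EGOT gapmer and 46664 to 47362 with the control gapmer. APOA1, for apolipoprotein A-I, was the 1 hepatocyte marker called, higher by 0.36 (limma adjusted p = 0.0406), and APOB, for apolipoprotein B, differed by -0.18 (limma adjusted p = 0.124). The leukocyte marker genes CD68, for a lysosomal glycoprotein, and LYZ, for lysozyme, rose by 1.06 and 0.57 on the log2 scale (limma adjusted p = 0.00807 and 0.0171), and the 3 measured leukocyte markers summed to 1308 to 1352 against 762 to 812 with the control gapmer. CD14, the third, differed by -0.06 (limma adjusted p = 0.736), and of 4 measured endothelial and fibroblast markers 0 passed by limma, at an unadjusted p under 0.05 as well. EGOT fell to 4.83 ± 0.126 with the EGOT gapmer, against 6.59 ± 0.269 with the control gapmer (SD, n = 3 each, limma adjusted p = 0.0076). The part of these shifts in the results below was not tested. EGOT gapmer replicate 2 had the highest array median, 5.23, where the other 5 arrays lay between 5.08 and 5.15. The number of arrays limits the precision of every value.

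DTX3L was lower with the EGOT gapmer. Its log2 expression was 9.08, 9.21 and 9.14 in the EGOT gapmer arrays, against 9.58, 9.69 and 9.52 in the control gapmer arrays. Every EGOT gapmer array lay below every control gapmer array, and the gap between the groups was wider than the spread within either. The group levels were 9.15 ± 0.0668 with the EGOT gapmer and 9.60 ± 0.0852 with the control gapmer (SD, n = 3 each). DTX3L fell by 0.45 on the log2 scale, with a standard error of 0.0778 and a 95% interval from -0.63 to -0.27, to 0.731 of the control level (limma adjusted p = 0.0226, Benjamini-Hochberg over all named genes). With the 20 ways to assign the arrays, an exact permutation test (two-sided) gave p = 0.1, the smallest that 3 arrays against 3 allow. The probe set stood between the percentiles 95.8 and 97.9 of its array, well away from the dim end where RMA compresses differences.

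The call for DTX3L ended in most fits with an array left out. It passed in 1 of the 6 fits with an array left out, that without EGOT gapmer replicate 2 (limma adjusted p = 0.0456). Without EGOT gapmer replicate 1 or 3 the limma adjusted p was 0.0569 or 0.0695, and leaving out control gapmer replicate 1, 2 or 3 gave 0.0755, 0.0935 or 0.0712. The log2 difference moved little in these fits, lying between -0.49 and -0.41. With every probe set tested, named or not, the limma adjusted p of DTX3L was 0.0804.

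**Figure D1:**
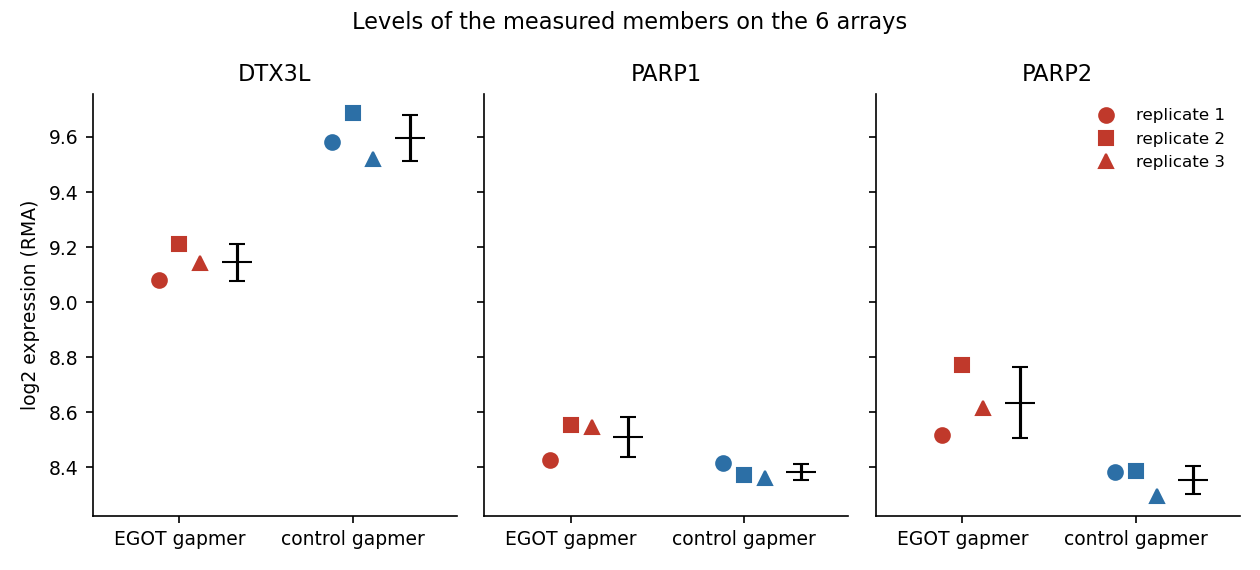
Log2 expression (RMA) of DTX3L, PARP1 and PARP2 on each array, with the EGOT gapmer in red and the control gapmer in blue. Symbols mark replicates and black bars the mean ± SD (n = 3). DTX3L lies between 9.08 and 9.21 with the EGOT gapmer and between 9.52 and 9.69 with the control gapmer, whereas PARP1 and PARP2 sit slightly higher with the EGOT gapmer.

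PARP1, the main enzyme of poly(ADP-ribose) synthesis at DNA breaks, did not pass the test. Its log2 expression was 8.43, 8.56 and 8.55 in the EGOT gapmer arrays, against 8.42, 8.37 and 8.36 in the control gapmer arrays. The groups did not overlap, but the lowest EGOT gapmer array, replicate 1, and the highest control gapmer array, replicate 1, were almost level. Its difference on the log2 scale was 0.13 (standard error 0.0708), with a 95% interval from -0.04 to 0.29 (limma adjusted p = 0.324). It was 0.08 after quantile normalization again, 0.07 after cyclic loess and 0.08 with a trend on genomic span removed.

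PARP2, its smaller relative in the same repair pathway, had a larger difference that also did not pass. Its log2 expression was 8.52, 8.77 and 8.62 in the EGOT gapmer arrays, against 8.38, 8.39 and 8.29 in the control gapmer arrays. All 3 EGOT gapmer arrays lay above the control gapmer arrays, with replicate 2 the highest. On the log2 scale it differed by 0.28 (standard error 0.0862), with a 95% interval from 0.08 to 0.48 before adjustment (limma adjusted p = 0.0919). It was 0.21 without EGOT gapmer replicate 2 (limma adjusted p = 0.164). The difference of PARP2 was 0.24 after quantile normalization again, 0.23 after cyclic loess and 0.19 with a trend on genomic span removed. PARP2 did not pass in these fits (limma adjusted p = 0.0834, 0.108 and 0.177). Both genes had two-sided exact permutation p = 0.1, again the smallest possible.

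Of the 3 measured members 1 was therefore called, downward. Over all 14812 genes 8.41% were called, 3.21% lower and 5.2% higher with the EGOT gapmer. The groups did not overlap in 3 of 3 members, 1 lower and 2 higher, where 31.7% of all genes had groups that did not overlap, 11.5% lower and 20.2% higher. With 3 members, neither count can be set firmly apart from those shares. In data simulated from these 14812 genes, 200 were given a change. The fit called 38% of the 100 genes given a log2 change of 0.5 and 80% of the 100 given a log2 change of 1. It made 126 calls there, 8 of them false, against 1245 in the data, so these shares are not recovery rates for the data.

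Comparing the members within each array removes any shift shared by a whole array. The level of such a difference between probe sets has no meaning, and only its change between groups is read. DTX3L minus PARP1 was 0.65, 0.66 and 0.60 in the EGOT gapmer arrays, against 1.16, 1.32 and 1.16 in the control gapmer arrays. DTX3L minus PARP2 was 0.56, 0.44 and 0.53 in the EGOT gapmer arrays, against 1.20, 1.30 and 1.23 in the control gapmer arrays. In both pairs the groups were far apart, by -0.58 with a standard error of 0.0552 against PARP1 and by -0.73 with a standard error of 0.0476 against PARP2. PARP1 minus PARP2 changed less, by -0.15 with a standard error of 0.0516. The standard errors of pairs come from the spread of each pair's own values, whereas those of single genes are limma's. They cannot be set beside each other as measures of precision. Each of the 3 pairs had a two-sided exact permutation p of 0.1, also after adjustment over the 3, which is the smallest this design can give and so does not reach 0.05.

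**Figure D2:**
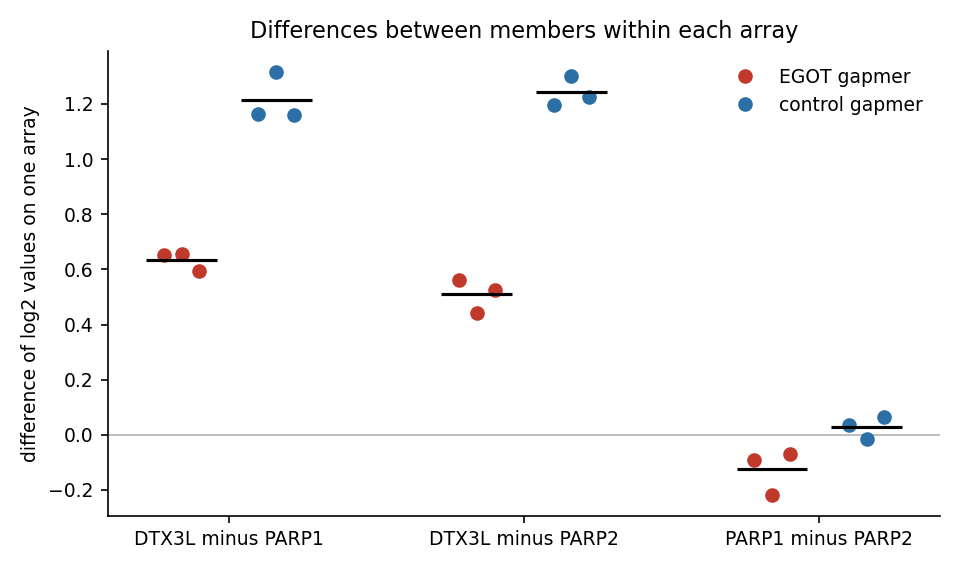
Differences of log2 values between members on the same array, EGOT gapmer in red and control gapmer in blue, with black lines at the group means (n = 3). DTX3L minus PARP1 is 0.60 to 0.66 with the EGOT gapmer and 1.16 to 1.32 with the control gapmer, whereas PARP1 minus PARP2 changed less between the groups, by -0.15, though its groups did not overlap either.

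Of the 4 other Deltex family genes 0 passed as lower by limma and 1 as higher, where 3.21% and 5.2% of all genes did. At an unadjusted limma p under 0.05, 0 of the 4 were lower, as were 1302 of all 14812 genes. With 4 genes, these counts cannot be set apart from those shares. DTX3, which like DTX3L carries a RING domain and the Deltex C-terminal domain, rose by 0.52 on the log2 scale (standard error 0.116, limma adjusted p = 0.0414). Its log2 expression was 6.41, 6.42 and 6.67 in the EGOT gapmer arrays, against 5.78, 6.05 and 6.11 in the control gapmer arrays, so the groups did not overlap. DTX3 passed in 0 of the 6 fits with an array left out (differences of 0.42 to 0.58, limma adjusted p of 0.0713 to 0.112), nor after cyclic loess, with every probe set tested or with a trend on genomic gene span removed (limma adjusted p = 0.0521, 0.109 and 0.101). DTX1, DTX2 and DTX4 did not pass, with differences between -0.09 and 0.10. The median of the 4 was 0.10, where that of all genes was 0.04.

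The genes near DTX3L on chromosome 3 were measured only in part. PARP9 and PARP14 were not analysed here, nor were the listed neighbours FAM162A, PARP15 and SEMA5B. DTX3L spans chr3:122564338-122575203 and PARP9 chr3:122527924-122564784 in GRCh38.p14, so the annotated genes overlap by 447 bases. Of 7 measured neighbours in the same chromosome band 0 passed by limma in the values as deposited, where 8.41% of all genes did. With 7 genes, that count cannot be set apart from that share. At an unadjusted limma p under 0.05, 2 were higher and 0 lower. Of all 14812 genes 2406 were higher and 1302 lower at that level. The median difference of the 7 was 0.08, with a range from -0.11 to 0.39. The 2 with the smallest p were CSTA, for the protease inhibitor cystatin A, at 0.39 (limma adjusted p = 0.0962) and WDR5B, a WD-repeat gene, at 0.27 (limma adjusted p = 0.0985). WDR5B passed as higher with the filter on dim genes and with the intensity trend (limma adjusted p = 0.0202 and 0.0255). CSTA was dim, at 4.24 with the EGOT gapmer and 3.86 with the control gapmer.

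Calls among the remaining ADP-ribosylation and NAD genes are given list by list, where 8.41% of all genes were called. With 1 to 8 measured genes in a list, no count can be set apart from that share. TIPARP, or PARP7, a mono-ADP-ribosyltransferase known as a target of the aryl hydrocarbon receptor, was the 1 measured gene of 8 further PARP family members. Its log2 expression was 8.39, 8.53 and 8.62 in the EGOT gapmer arrays, against 8.43, 8.44 and 8.39 in the control gapmer arrays, and the groups overlapped. The difference was 0.09 with a standard error of 0.0804 (limma adjusted p = 0.537). It was 0.15 without EGOT gapmer replicate 1 and 0.04 without replicate 3, and 0.05 after quantile normalization again, 0.04 after cyclic loess and 0.02 with the span trend removed.

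Among 7 measured genes that remove or read ADP-ribose 0 passed by limma, 2 were lower at an unadjusted p under 0.05, and their median difference was -0.03. PARG, the main enzyme that degrades poly(ADP-ribose), was at 9.46, 9.46 and 9.43 in the EGOT gapmer arrays, against 9.66, 9.67 and 9.64 in the control gapmer arrays. These groups were apart and tight within themselves, yet at a difference of -0.21 PARG did not pass (limma adjusted p = 0.0914), and the mean of its 3 probe sets differed by -0.09 (limma adjusted p = 0.495). PARG did pass after quantile normalization again, after cyclic loess, with the filter on dim genes and with the intensity trend (limma adjusted p = 0.0493, 0.0471, 0.0180 and 0.00671). ENPP1, a phosphodiesterase that can cleave ADP-ribose, differed by -0.18 (limma adjusted p = 0.157) and passed as lower with the filter on dim genes and with the intensity trend (limma adjusted p = 0.0429 and 0.0148).

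Of 4 measured partners of PARP1 and PARP2 in break repair 0 passed by limma, at an unadjusted p under 0.05 as well, with a median of 0.10. HPF1, the cofactor that directs both enzymes to serine, ranged from 6.36 to 7.20 with the EGOT gapmer and from 6.29 to 6.50 with the control gapmer. Its difference of 0.38 had a standard error of 0.197 (limma adjusted p = 0.289), and was 0.59 without EGOT gapmer replicate 1 and 0.17 without replicate 2 (limma adjusted p = 0.0694 and 0.534). APLF, which binds poly(ADP-ribose) in end joining, differed by 0.11 (limma adjusted p = 0.419). Of 8 measured NAD synthesis genes 1 passed, QPRT, an enzyme of NAD synthesis from tryptophan, which rose by 0.36 (standard error 0.0690, limma adjusted p = 0.029). QPRT passed in 0 of the 6 fits with an array left out (differences of 0.33 to 0.38, limma adjusted p of 0.059 to 0.106). It did not pass with every probe set tested (limma adjusted p = 0.0979) or without the trend on genomic span, where it differed by 0.27 (limma adjusted p = 0.0570). The 8 genes had a median of 0.07.

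**Figure D3:**
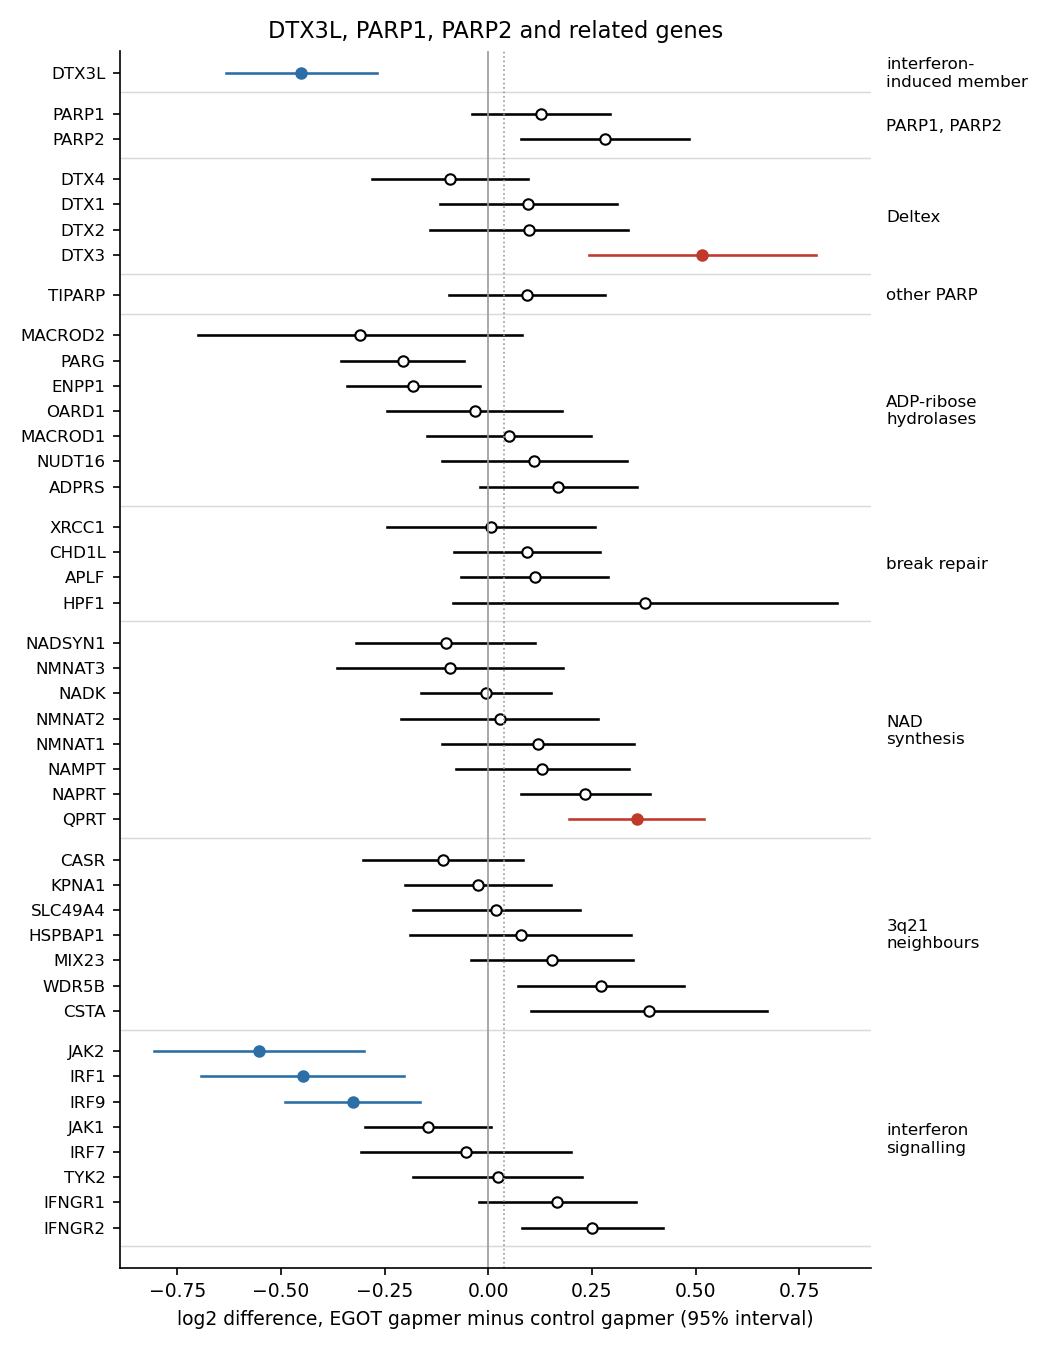
Log2 differences, EGOT gapmer minus control gapmer, with 95% intervals for DTX3L, PARP1, PARP2 and related genes grouped by role. Filled blue points passed as lower and filled red points as higher (limma adjusted p under 0.05), open points did not pass, and the dotted line is the median of all genes, 0.04. DTX3L lies at -0.45. Of the 8 interferon signalling genes JAK2, IRF1 and IRF9 passed as lower, whereas 5 did not pass, with differences up to 0.25. The other Deltex genes lie above DTX3L.

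Interferon signalling genes were lower in part. Of 8 measured signalling genes 3 fell and 0 rose by limma, with 1 higher at an unadjusted p under 0.05 and a median of -0.10. JAK2, a kinase of the interferon gamma receptor, fell by 0.55 on the log2 scale (limma adjusted p = 0.0293). IRF1, a transcription factor induced by interferon gamma, fell by 0.45 (limma adjusted p = 0.0453). IRF9, the DNA-binding part of the ISGF3 complex that reads the ISRE, fell by 0.33 (limma adjusted p = 0.0356). IRF9 was at 8.97, 9.07 and 9.03 in the EGOT gapmer arrays, against 9.35, 9.40 and 9.30 in the control gapmer arrays. JAK2 passed in 1 of the 6 fits with an array left out, that without EGOT gapmer replicate 2 (limma adjusted p = 0.0359), and IRF1 and IRF9 in 0, with limma adjusted p up to 0.0955, 0.140 and 0.130. With every probe set tested JAK2, IRF1 and IRF9 did not pass (limma adjusted p = 0.0871, 0.119 and 0.117), and IRF1 did not pass with array weights (limma adjusted p = 0.0532).

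The fall of DTX3L was near the median of those of interferon-stimulated genes. Of 29 measured genes of a list of 37 that leaves DTX3L out, 16 fell and 0 rose by limma, with 0 higher at an unadjusted p under 0.05 as well, and 28 had a difference below 0, where 42.2% of all genes did. The list's median difference was -0.47, that of all genes 0.04, and 17 of the 29 had a lower difference than DTX3L. The 4 with the smallest p were IFI44L, at -1.48, RSAD2, the gene of viperin, at -1.36, DDX60, a helicase gene, at -1.01, and EPSTI1, at -1.002. Their limma adjusted p-values lay between 0.00851 and 0.0114, and without an array at most 0.0562 for RSAD2 and EPSTI1, 0.0563 for DDX60 and 0.0513 for IFI44L. The calls ended without control gapmer replicate 2 for all 4, without replicate 1 for RSAD2, DDX60 and EPSTI1, and without replicate 3 for EPSTI1. An ISRE core like that of DTX3L stood in the start windows of 16 of the 25 genes of the list that had one in the table. Counted the same way, by gene over any of its windows, 4.38% of 27305 genes had a match. The list was chosen with earlier results of these data known, and its fall is no independent support for that of DTX3L.

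EIF2AK2, the gene of PKR, moved with DTX3L. It fell to 10.68 ± 0.0806 with the EGOT gapmer, against 11.25 ± 0.0224 with the control gapmer (SD, n = 3 each, limma adjusted p = 0.0119). Whether its probe set reads the plasmid, the cell's own gene or both is not given in the sources used here, and its part in the level of DTX3L was not tested. EIF2AK2 did not pass without control gapmer replicate 1, 2 or 3 (limma adjusted p of at most 0.0640) or with every probe set tested (limma adjusted p = 0.0540).

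The genes whose pattern was most like that of DTX3L were named by Pearson correlation over the 6 arrays, as a description. The arrays form 2 groups and 299 of 11909 other protein-coding genes had a correlation above 0.95, so the values mostly carry the difference between the groups. The 5 highest were N4BP2L2 and NOTCH1, at 0.9995 and 0.9994, IRF9 at 0.998, SP100, a nuclear body protein gene, at 0.997, and EXOC6B, an exocyst subunit gene, at 0.996. N4BP2L2 fell by 0.42 (limma adjusted p = 0.0235), SP100 by 0.93 (limma adjusted p = 0.0127) and EXOC6B by 0.95 (limma adjusted p = 0.00851), whereas the signalling receptor gene NOTCH1 differed by -0.11 and did not pass (limma adjusted p = 0.329). With an array left out, N4BP2L2 passed in 1 of 6 fits, without EGOT gapmer replicate 2, SP100 in 2 of 6, without EGOT gapmer replicates 1 and 2, and EXOC6B in 5 of 6, all but that without control gapmer replicate 2 (limma adjusted p up to 0.0972, 0.0600 and 0.0562). With every probe set tested N4BP2L2 and SP100 did not pass (limma adjusted p = 0.0842 and 0.0512). The correlations of DTX3L with PARP1 and PARP2 were -0.708 and -0.732, and that with EGOT was 0.956.

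**Figure D4:**
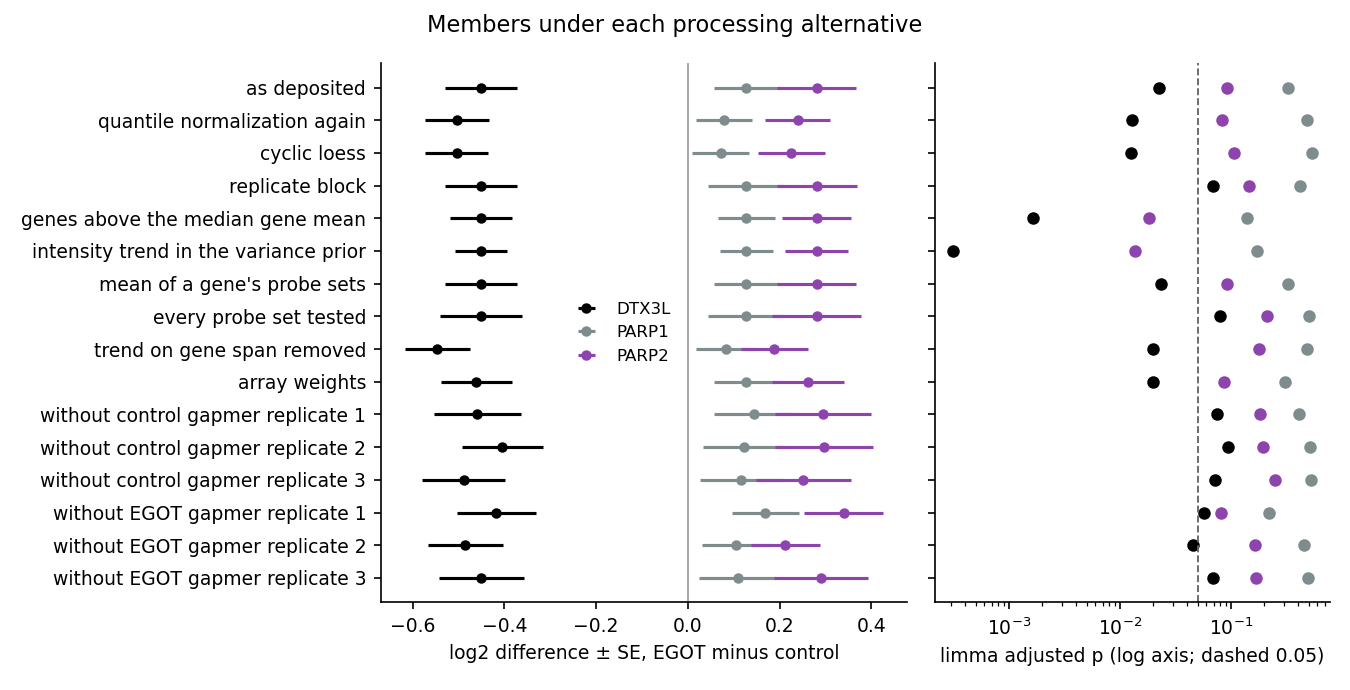
Log2 differences ± SE (left) and limma adjusted p on a log axis (right) of DTX3L, PARP1 and PARP2 in the values as deposited and under 15 alternatives. DTX3L lies between -0.55 and -0.41 throughout and passes 0.05 in 8 of the 15, PARP2 passes in 2 and PARP1 in 0.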

How the data were processed

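The 6 arrays were grouped by the labels as 3 EGOT gapmer and 3 control gapmer samples. The deposited values are log2 expression from RMA, which per the submitters' processing notes the authors ran. This method corrects background, equalises quantiles and condenses probes into probe sets. No version or filter is given in the sources used here. Of 44629 probe sets, 15835 (35.5%) had a symbol in GEO's platform annotation, standing for 14812 genes, and the others were not used except in 1 alternative.

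Differences are EGOT gapmer minus control gapmer. They were fitted in limma 3.58.1 under R 4.3.3 (lmFit, eBayes, two-sided, Benjamini-Hochberg over 14812 genes, threshold 0.05, 7.19 degrees of freedom). Single values also had a two-sided exact permutation test. The fit was tested on simulated data. Alternatives were another normalization, the replicate block, a filter on dim genes, an intensity trend, other uses of probe sets, removal of a trend on genomic gene span, array weights and each array left out.

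The members and lists were chosen with earlier results of these data known. Genes named besides members, EGOT and EIF2AK2 are those past the threshold in each list, or the 2 with the smallest p where 0 passed, the 4 with the smallest p among interferon-stimulated genes, and the 5 protein-coding genes most like PARP9 over the arrays. PARP9 was not analysed here, so DTX3L stood in for it. The marker genes, DTX1, DTX2, DTX4 and CD14 lie outside this rule and were named after their values were seen. Sequences are from RefSeq (GRCh38.p14) and the labels.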

Additional observations from a re-analysis of the deposited data

How the results depend on the processing

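DTX3L, PARP1, PARP2 and EGOT kept the sign of their difference under all 15 alternatives, or 14 for EGOT, which the filter on dim genes left out. DTX3L no longer passed with every probe set tested (-0.45, limma adjusted p = 0.0804) or with the replicate block (-0.45, limma adjusted p = 0.0682), leaving 0 members called lower in each, and with an array left out 0 to 1 members were called lower, at differences of -0.49 to -0.41. PARP2 passed with the filter on dim genes (0.28, limma adjusted p = 0.0182) and with the intensity trend (0.28, limma adjusted p = 0.0136), making 1 member called higher in each.

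Calls over all genes were 475 lower and 770 higher as deposited, 859 and 1688 with the filter on dim genes, 849 and 1664 with the intensity trend, and 73 and 46 with every probe set tested. With the trend on gene span removed they were 325 and 346, after quantile normalization again 674 and 679, and after cyclic loess 677 and 644. With an array left out they were 7 to 258 lower and 2 to 389 higher. The share of calls that were higher was 61.8% as deposited, 50.2% after quantile normalization again, 48.8% after cyclic loess and 51.6% without the trend on span.

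With the replicate block limma made 0 calls lower and 0 higher, with 3438 genes at an unadjusted p under 0.05, against 3708 without it, and EGOT was at -1.76 (limma adjusted p = 0.0543). The deviations of same-numbered arrays from their group means correlated at -0.03, -0.05 and 0.03, and 1 of the 6 arrays correlated best with its own number. No shared pattern by number was thus seen, but the labels do not say whether same-numbered samples were prepared together. The cause of these changes was not tested. For the other named genes, 229 of 312 values kept direction and side of the threshold, 75 lost the call, 8 gained it and 0 changed sign.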
